A study of Mus musculus with 2 samples.

Results

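The 7 loci described here encode the 5 microRNAs of the miR-200 family (Mir200b, Mir200a, Mir429, Mir200c and Mir141) and 2 further microRNAs known from epithelia, Mir203 and Mir205. They were taken from the 2202 microRNA loci of the count tables by their Ensembl identifiers in GENCODE M21, where each had 1 row. The tissue was left cerebral cortex of female mice aged 14 days, of the F1 hybrid B6CASTF1/J (B6 with CAST), and RNA shorter than 30 nt was sequenced. A single group of 2 biological replicates is labelled, with no treatment and no introduced allele. They name the same donor record for both and speak of several females for replicate 1 and of a single female for replicate 2. The SDs below therefore describe the spread between these 2 libraries, part of which may be technical.

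The miR-200 family is known as a guardian of the epithelial state. Its members repress Zeb1 and Zeb2, transcription factors that silence E-cadherin, and these factors in turn repress both miR-200 clusters, so that either side can hold the other down. In the nervous system the family is best known from the olfactory epithelium and its neural progenitors, and Mir200b and Mir429 also act in the pituitary. Mir203 is abundant in skin, where it represses the stem cell factor p63, and Mir205 marks stratified epithelia and shares Zeb1 and Zeb2 as targets.

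The mature sequences fall into 4 seed groups. They are shown because the seed, bases 2 to 8 from the 5′ end, largely sets which messenger RNAs a microRNA represses. Sequences are from RefSeq on GRCm38.p6, the assembly called mm10, for the arm usually taken as the functional one. All 7 loci matched by symbol, and the seed is in capitals.
miR-200b-3p: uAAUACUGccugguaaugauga
miR-429-3p: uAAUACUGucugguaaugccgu
miR-200c-3p: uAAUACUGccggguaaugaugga
miR-200a-3p: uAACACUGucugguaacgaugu
miR-141-3p: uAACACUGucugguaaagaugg
miR-203-3p: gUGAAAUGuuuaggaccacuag
miR-205-5p: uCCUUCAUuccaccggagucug

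Mir200b, Mir429 and Mir200c share the seed AAUACUG, and Mir200a and Mir141 share AACACUG. The seeds of the 2 groups differ by 1 base, U4C when positions are counted from the 5′ end of miR-200b-3p. Among the 1738 mature mouse microRNAs of the table, AAUACUG was the seed of 3 (0.173%) and AACACUG of 2 (0.115%), each of them from this family. UGAAAUG of miR-203-3p and CCUUCAU of miR-205-5p each occurred in 1.

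Within a seed group the mature sequences differ at few positions. Mir200b and Mir200c differ at 2 of 22 aligned positions (U11G and A22G, with the base of miR-200b-3p first), and Mir200a and Mir141 at 2 of 22 (C17A and U22G, with the base of miR-200a-3p first). Mir429 differs from Mir200b at 4 positions (C9U, A19C, U20C and A22U). The longest stretch that any of the 7 hairpins shared with another microRNA locus of GENCODE M21, on either strand, was 17 nt, between Mir200a and Mir141. Mir200b and Mir200c shared 14 nt. RefSeq holds 1 more locus, Gm51289 (also called Mir203b), whose 60 nt lie inside the interval of Mir203. Matches elsewhere in the genome were not searched. Reads that mapped to several places enter no count of a locus, and the sources used here do not give the mismatches that the alignment allowed.

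The 5 family members lie in 2 clusters, each on the minus strand of mm10. Mir200b (chr4:156055681-156055750), Mir200a (chr4:156054896-156054985) and Mir429 (chr4:156053905-156053987) span 1846 nt inside introns of the tubulin ligase-like gene Ttll10 and within the non-coding transcript Gm13648, where Mir429 falls in an exon and the others in introns. Mir200c (chr6:124718322-124718390) and Mir141 (chr6:124717914-124717985) span 477 nt within introns of the non-coding Gm15884, and Mir141 overlaps in part an exon of Gm29008. The nearest protein-coding gene there is Phb2, at 964 nt from Mir141. Mir203 (chr12:112130880-112130955, plus strand) overlaps no other gene of GENCODE M21 and lies 3321 nt from Aspg, the nearest protein-coding gene, while RefSeq places Gm51289 inside it. Mir205 (chr1:193507463-193507530, minus strand) lies in an exon of the non-coding RNA 4631405K08Rik, its host transcript.

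A count belongs to a whole hairpin, so reads of its arms cannot be told apart in these tables. The family's hairpins are printed to show what each count covers, with both annotated mature arms in capitals.
Mir200b: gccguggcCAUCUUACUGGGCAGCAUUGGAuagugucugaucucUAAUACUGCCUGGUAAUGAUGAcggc
Mir200a: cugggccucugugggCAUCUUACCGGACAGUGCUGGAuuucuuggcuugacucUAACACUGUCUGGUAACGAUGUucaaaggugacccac
Mir429: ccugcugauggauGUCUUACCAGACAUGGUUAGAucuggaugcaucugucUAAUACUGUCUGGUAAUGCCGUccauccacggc
Mir200c: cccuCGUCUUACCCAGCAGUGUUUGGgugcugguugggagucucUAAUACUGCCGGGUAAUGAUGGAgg
Mir141: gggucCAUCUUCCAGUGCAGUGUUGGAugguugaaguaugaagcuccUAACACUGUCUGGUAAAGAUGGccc

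Replicate 1 held 2740332 reads on the RNA strand of microRNA loci and replicate 2 held 3207941, which were 35.4% and 33.3% of all reads. Reads that mapped to several places made up 40.6% and 37.9%. Levels are given as CPM, the reads of a locus per 1000000 reads counted on microRNA loci. At these depths 1 read is 0.365 CPM in replicate 1 and 0.312 in replicate 2. A count of 0 allows up to 3 reads, or 1.09 and 0.935 CPM, by a rounded 1-sided 95% limit. Intervals are 2-sided exact 95% intervals, whose upper end for the 0 reads of Mir141 in replicate 1 would be 1.35 CPM. They and these limits reflect counting error alone, as the labels mention no molecular identifiers.

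The 7 loci were rare in the cortex. Together they gave 357 reads in replicate 1 and 813 in replicate 2, or 0.0130% (Clopper-Pearson interval 0.0117 to 0.0145%) and 0.0253% (0.0236 to 0.0271%) of the reads on microRNA loci. The summed level was 192 ± 87.1 CPM (SD, n = 2). The intervals of the share do not overlap between the libraries. In a tissue sample a small number of epithelial cells and a low level in many cells cannot be told apart.

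Detection was set at 10 or more reads in both libraries, which 4 of the 7 loci reached: Mir429, Mir203, Mir200b and Mir200c. Over all annotated loci 389 of 2202 (17.7%) were detected. Mir200a, Mir205 and Mir141 fell below this minimum. All 7 lay under the median mean level of the detected loci, which was 149 CPM, and the detected members had a median of 49.0 CPM.

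Mir429, of the AAUACUG group, had the highest mean level. It was counted with 150 reads in replicate 1 and 244 in replicate 2, at 54.7 CPM (exact Poisson interval 46.3 to 64.2) and 76.1 CPM (66.8 to 86.2). Its mean of 65.4 ± 15.1 CPM (SD, n = 2) placed it 226th of all loci, above 41.9% of the detected ones. The libraries gave Mir429 nearly the same place, 227th and 224th.

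Mir203, the skin microRNA, followed at 59.2 ± 26.9 CPM (SD, n = 2). It had 110 reads (40.1 CPM, interval 33.0 to 48.4) in replicate 1 and 251 reads (78.2 CPM, 68.9 to 88.5) in replicate 2. Mir203 was thus below Mir429 in the first library and slightly above it in the second. The intervals of Mir203 do not overlap between libraries, and neither do those of Mir429 or of Mir200b. These intervals carry no scaling beyond library totals, and the share of all loci without overlap was not counted.

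Mir200b was the least even of the detected members. It had 36 reads (13.1 CPM, interval 9.20 to 18.2) in replicate 1 and 207 reads (64.5 CPM, 56.0 to 73.9) in replicate 2. The SD of 36.3 CPM was close to the mean of 38.8 CPM (n = 2). In replicate 1 Mir200b ranked below Mir200c, and in replicate 2 above it.

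Mir200c, the third locus with the AAUACUG seed and the leading locus of the chromosome 6 cluster, was the most even. It had 45 reads (16.4 CPM, interval 12.0 to 22.0) in replicate 1 and 68 reads (21.2 CPM, 16.5 to 26.9) in replicate 2, a mean of 18.8 ± 3.38 CPM (SD, n = 2). These intervals overlap.

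Mir200a and Mir141, the loci with the AACACUG seed, were counted with few reads. Mir200a had 9 reads (3.28 CPM, interval 1.502 to 6.23) and 19 reads (5.92 CPM, 3.57 to 9.25) in replicates 1 and 2. Mir141 had 0 reads in replicate 1, which allows up to 1.09 CPM by the 1-sided limit, and 3 reads (0.935 CPM, 0.193 to 2.73) in replicate 2. Whether Mir141 differed between the libraries was not detectable at this depth.

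Mir205 of stratified epithelia had 7 reads (2.55 CPM, interval 1.03 to 5.26) in replicate 1 and 21 reads (6.55 CPM, 4.05 to 10.01) in replicate 2. Its mean of 4.55 ± 2.82 CPM was indistinguishable from the 4.604 ± 1.87 CPM of Mir200a (SD, n = 2).

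**Figure D1:**
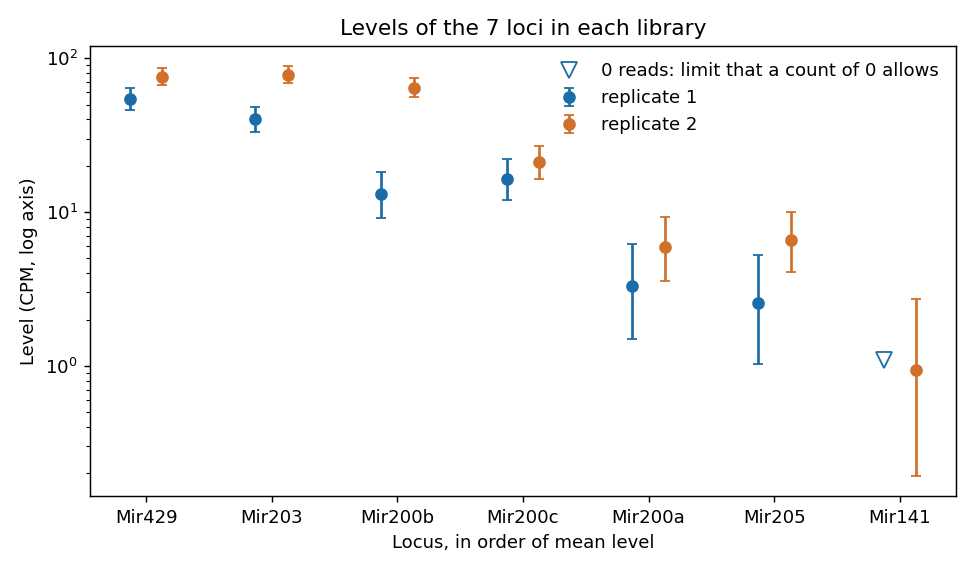
Level of each of the 7 loci in CPM (log axis) in replicate 1 (blue) and replicate 2 (orange), with exact 95% Poisson intervals as bars and an open triangle for the limit that 0 reads allow. Every locus has its higher point in replicate 2, and the points of Mir200b, at 13.1 and 64.5 CPM, lie farthest apart among the detected loci.

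The order by mean level was Mir429, Mir203, Mir200b, Mir200c, Mir200a, Mir205 and Mir141. Of the 6 pairs of neighbours in that order, the ranges over the libraries overlapped in 4. They did not overlap for Mir200c against Mir200a and for Mir205 against Mir141. Farther apart in the order, Mir429 and Mir203 were each above Mir200c in both libraries. Mir203 was also above Mir200b within each library, although their ranges overlap. The places of Mir429 against Mir203, of Mir200b against Mir200c and of Mir200a against Mir205 changed between the libraries. Counts were not divided by length here, since a read stands for a whole mature microRNA of similar size at every locus. Whether the libraries captured the different mature sequences equally was not tested, so orders, shares and ratios of loci are those of reads. Per 100 nt of annotated hairpin, where lengths run from 68 nt for Mir205 to 90 nt for Mir200a, Mir205 (6.69 CPM per 100 nt) and Mir200a (5.12) change places and the rest of the order stays.

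**Figure D2:**
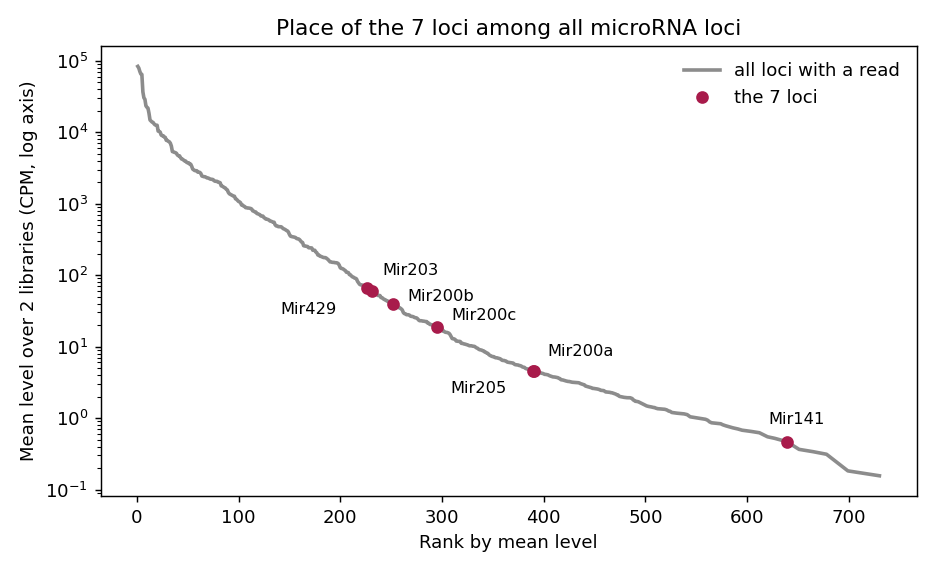
Mean level over the 2 libraries (CPM, log axis) against rank, for all microRNA loci with a read (grey line) and the 7 loci (red points). Mir429, Mir203, Mir200b and Mir200c lie between rank 226 and rank 295, Mir200a and Mir205 at 389 and 390, and Mir141 at 639.

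Detected loci outside the family with the most similar level in both libraries were found by the distance of log2(CPM + 1) over the 2 libraries, which describes level only. Mir345 (148 and 256 reads) and Mir542 (147 and 232) were nearest to Mir429, at distances of 0.071 and 0.077. Mir25 (108 and 223 reads) and Mir374b (118 and 227) were nearest to Mir203, both at 0.17. Mir6900 (44 and 75 reads) and Mir3086 (47 and 60) were nearest to Mir200c, at 0.14 and 0.18. Mir200b had no such close neighbour: Mir448 (46 and 155 reads) stood at 0.53 and Mir152 (29 and 130) at 0.72.

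Loci of a cluster are thought to be cut from 1 primary transcript, so their reads can be compared within a library without any scaling between libraries. The chromosome 4 cluster was dominated by Mir429 and Mir200b, with little Mir200a. Mir429 held 76.9% of the cluster's 195 reads in replicate 1 (Clopper-Pearson interval 70.4 to 82.6%) and 51.9% of 470 in replicate 2 (47.3 to 56.5%). Mir200b held 18.5% (13.3 to 24.6%) and 44.0% (39.5 to 48.7%). The intervals of both shares did not overlap between the libraries. Shares of a cluster sum to 100%, so with little Mir200a a higher share of Mir200b entails a lower one of Mir429, whose own level was not lower in replicate 2. The share of Mir200a was 4.62% (2.13 to 8.58%) and 4.04% (2.45 to 6.24%) with overlapping intervals.

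As ratios of reads, Mir429 stood at 4.17 times Mir200b in replicate 1 (interval 2.88 to 6.17) and at 1.18 times in replicate 2 (0.975 to 1.43). Mir429 exceeded Mir200a 16.7-fold (8.55 to 37.2) and 12.8-fold (8.05 to 21.7). The ratio of Mir200b to Mir200a was 4.00 (1.89 to 9.44) and 10.9 (6.80 to 18.5). The neighbours on the genome were therefore far from equal in reads, and the interval of Mir429 to Mir200b reaches 1 in replicate 2 alone.

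In the chromosome 6 cluster nearly all reads came from Mir200c. It held 45 of 45 reads in replicate 1, which is 15.0-fold above Mir141 when the 0 reads of Mir141 are set to the limit of 3. That value leaves out the counting error of the 45 reads. In replicate 2 it held 68 of 71 reads, 22.7 times those of Mir141 (interval 7.43 to 113). The share of Mir141 was 0% in replicate 1, which allows up to 6.67% by the 1-sided limit. It was 4.23% (0.880 to 11.9%) in replicate 2, so no difference between libraries was detectable.

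**Figure D3:**
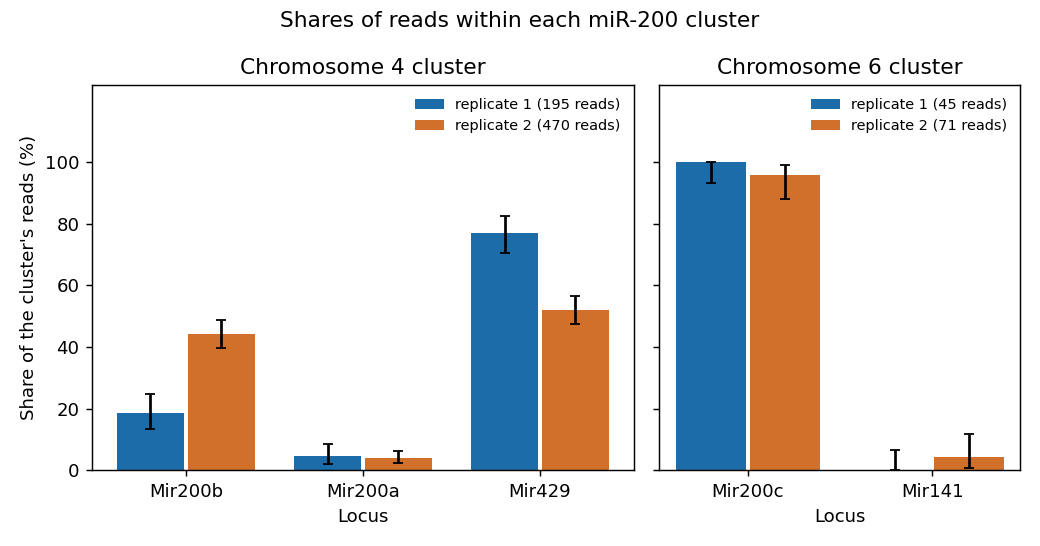
Share of the reads of each miR-200 cluster held by each of its loci (%), in replicate 1 (blue) and replicate 2 (orange), with Clopper-Pearson 95% intervals as bars, or the limit of 3 reads where a locus holds none or all of the reads. Mir429 holds 76.9 and 51.9% and Mir200b 18.5 and 44.0% of the chromosome 4 cluster in replicates 1 and 2, and Mir200c holds 100 and 95.8% of the chromosome 6 cluster.

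The chromosome 4 cluster gave more reads than the chromosome 6 cluster in both libraries. It reached 71.2 and 147 CPM in replicates 1 and 2 (109 ± 53.3 CPM, SD, n = 2), against 16.4 and 22.1 CPM (19.3 ± 4.04 CPM). The ratio was 4.33 (interval 3.12 to 6.13) in replicate 1 and 6.62 (5.15 to 8.62) in replicate 2, and these intervals overlap.

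In each cluster the locus with the AACACUG seed had the fewest reads. Summed over both clusters, AAUACUG loci had 231 and 519 reads in replicates 1 and 2 and AACACUG loci 9 and 22. The ratio was 25.7 (interval 13.3 to 56.8) and 23.6 (15.4 to 37.98). The intervals of this ratio overlap, whereas those of the shares of Mir200b and Mir429, which gave most of the AAUACUG reads, did not.

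Between the libraries, each of the 7 loci had its higher CPM in replicate 2. That direction was common, as the median log2 ratio over all detected loci was 0.16 when libraries were scaled by their totals alone. Most detected loci thus had the higher CPM in replicate 2, though their exact share was not counted. For the detected loci the reads were set against library sizes scaled by edgeR's trimmed mean of M values (TMM) in an exact binomial test, two-sided, with Benjamini-Hochberg adjustment over all 389 detected loci. The test compares these libraries only and covers counting error only. By this test 227 of the 389 loci (58.4%) differed, 112 (28.8%) higher and 115 (29.6%) lower in replicate 2, so passing it is common here. Of the 4 detected members 2 passed, Mir200b and Mir203, both higher in replicate 2.

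Mir200b was 4.36-fold higher in replicate 2 (interval 3.05 to 6.39), a log2 ratio of 2.12 with an adjusted p of 1.58e-20 by the exact binomial test. Only 1 detected locus had a larger ratio in this direction, and 6 of the 389 had a larger one in either direction. Mir203 was 1.73-fold higher (1.38 to 2.18), a log2 ratio of 0.79 with an adjusted p of 2.36e-06 by the same test, and held place 77 by the size of its ratio. The SD of the log2 ratio over all detected loci was 0.70, so Mir200b stood well outside the usual spread between these libraries and Mir203 only slightly beyond 1 SD.

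Mir429 and Mir200c did not pass the test. Mir429 had a log2 ratio of 0.30 (interval 0.0029 to 0.61), with an adjusted p of 0.0749 by the exact binomial test, and passed it when libraries were scaled by their totals alone (0.47, adjusted p = 0.00281) and when at least 50 reads were required (0.32, adjusted p = 0.0443). Its adjusted p ran from 0.00281 to 0.0939 over the alternatives. Mir200c had a log2 ratio of 0.20 (−0.37 to 0.77), with an adjusted p of 0.607 by that test. The interval of Mir200c leaves room for anything from a small decrease to a 1.71-fold increase.

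Mir200a and Mir205, below the minimum, had log2 ratios of 0.68 (interval −0.54 to 2.01) and 1.19 (−0.10 to 2.66), both of which include 0. The median log2 ratio of the 4 detected members was 0.55, against −0.0098 over all detected loci, of which 193 of 389 had a ratio above 0. The 4 ratios rest on a single pair of libraries and are described, not tested as a set.

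**Figure D4:**
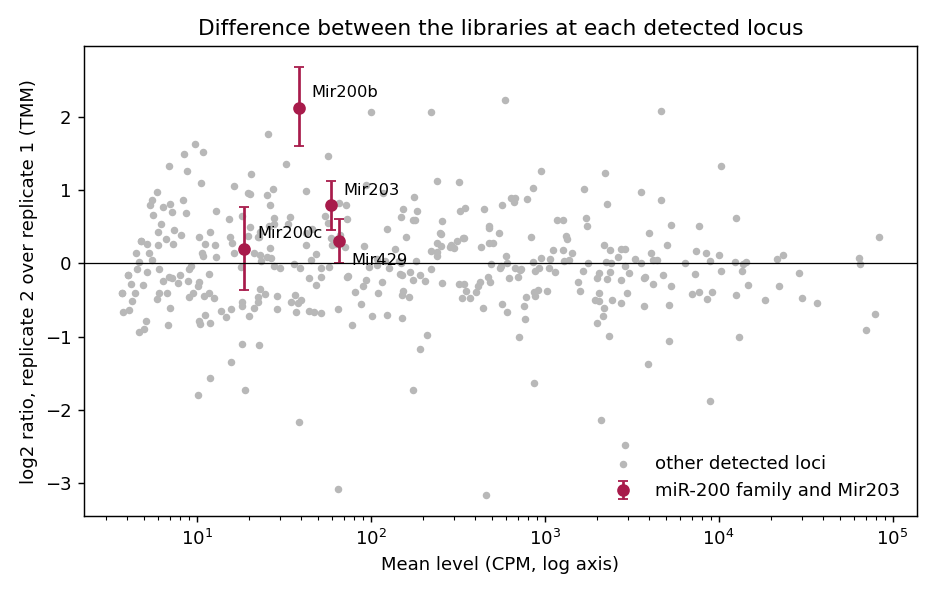
Log2 ratio of replicate 2 over replicate 1 after TMM scaling against mean level (CPM, log axis), for the 4 detected members (red, bars are exact 95% intervals) and the other detected loci (grey). Mir200b at 2.12 lies near the upper edge of the grey points, while Mir203, Mir429 and Mir200c, at 0.79, 0.30 and 0.20, lie among them.

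MicroRNA loci known from neurons were compared to place these levels in the labelled tissue. The 14 neuron loci, led by Mir128-1 and the activity-regulated Mir132, summed to 34625 and 44574 CPM, 266 and 176 times the 7 epithelial loci in replicates 1 and 2. All 14 had reads in at least 1 library, and 10 were detected, of which 5 were higher and 3 lower in replicate 2 past the test, with a median log2 ratio of 0.27. Mir128-1 and Mir132 together gave 43.8% of this sum in replicate 1 and 52.9% in replicate 2. The other 12 loci, a selection made after the values were seen, summed to 19461 and 20987 CPM, 149 and 82.8 times the epithelial loci. The 4 neuron loci below the minimum, Mir124a-1, Mir124a-2, Mir124a-3 and Mir9-2, had from 0 to 12 reads in a library. Reads that mapped to several places enter no count, so reads shared among the copies of Mir124a or of Mir9 would be missing here. These counts are therefore no measure of how abundant those microRNAs were, and the sum of the neuron list may be too low. How far it is too low was not tested.

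Loci known from other cell types were summed in the same way. The list of other epithelia covers gut, cornea, endocrine, keratinocyte and sensory loci. Whether this dissection included cells of these types was not tested. The 10 loci known from other epithelia (7 detected, Mir194-1 and Mir96 at 0 reads in both libraries) summed to 1129 CPM in replicate 1 against 349 in replicate 2. This sum went the other way from that of the miR-200 family. Past the test, 3 of the 7 detected loci were lower in replicate 2 and 0 higher. The loci did not all move together, as Mir183 and Mir182 had log2 ratios of 0.35 and 0.26, neither past the test. Mir31, a keratinocyte microRNA, made up most of the difference between the sums with 2246 and 331 reads. Without it, a choice made after its values were seen, the other 9 summed to 310 and 245 CPM. Mir375 of endocrine epithelia had 494 and 389 reads.

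The 7 loci of choroid plexus and ciliated epithelium (4 detected, Mir449b at 0 reads) summed to 967 and 1123 CPM, with 1 higher and 2 lower in replicate 2 past the test. Mir204 of the choroid plexus had 1219 and 2864 reads, and Mir449a of ciliated cells 698 and 408. Without Mir204, a choice made after its values were seen, the other 6 summed to 523 CPM in replicate 1 and 230 in replicate 2, and the median log2 ratio of the detected loci of the list was −0.42. The 6 loci of blood and vessels, all detected and led by the endothelial Mir126a, summed to 22192 and 14192 CPM, with 1 higher and 3 lower past the test. The neuron list, with and without its leading loci, had its higher sum in CPM in replicate 2, as the 7 epithelial loci did. These sums carry no TMM scaling. The TMM factors, 0.942 and 1.06, outweigh the small difference that the neuron list shows without its leading loci. The choroid plexus and ciliated list had its higher sum in replicate 2 only with Mir204 included. The part of any of these cell types in the difference of Mir200b or Mir203 between the libraries was not tested.

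**Figure D5:**
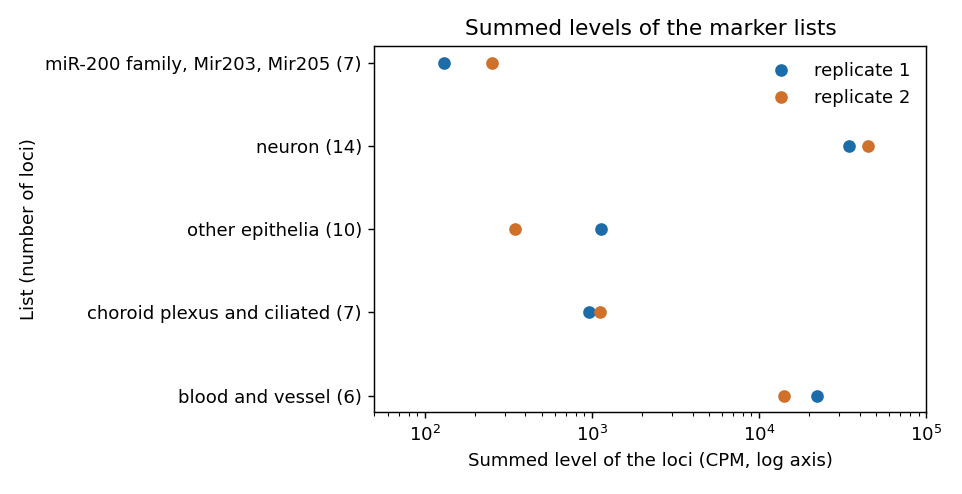
Summed level (CPM, log axis) of the 7 epithelial loci and of the 4 marker lists in replicate 1 (blue) and replicate 2 (orange), with the number of loci of each list in brackets. The 7 loci, at 130 and 253 CPM, have the lowest sum in both libraries, and the list of other epithelia is the higher of its pair in replicate 1 rather than replicate 2.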

How the data were processed

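Small RNA below 30 nt from 2 cortex libraries was analysed. The authors deposited whole read counts per microRNA gene, made on mm10 with GENCODE M21, per the file lists deposited with the tables. The sources used here name no aligner, counter or trimming. The columns have no header. Their values show a count without strand, one on the RNA strand and one on the opposite strand, and the RNA strand was used. Rows that name no gene (64.6% and 66.7% of reads) were left out of library sizes.

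All 2202 identifiers matched GENCODE M21. Detection required 10 reads in each library. TMM factors were 0.942 and 1.06 (edgeR 4.0.16). The exact binomial test (scipy 1.17.1, threshold 0.05) was tried on simulated counts that held counting error only. That trial cannot show how the test behaves where libraries differ by more than counting error. Alternatives were the column without strand, DESeq2 1.42.0 size factors, library totals, minimums of 5, 50 or no reads, CPM per 100 nt and each replicate left out. The members and lists were chosen with earlier results of these data known. Named loci were the members, the 2 nearest in level to each detected member, and the 2 most abundant loci of each list. Further loci of the lists are named where they limit what a sum shows.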

Additional observations from a re-analysis of the deposited data

Results flagged for a closer look

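Mir203 had reads on the strand opposite to its RNA, in a column that the comparisons above did not use. There were 4 reads in replicate 2 and 3 reads in replicate 1, against 251 and 110 on the RNA strand. Both counts are close to the 3 reads that a count of 0 allows. The RefSeq locus Gm51289 (Mir203b) lies at chr12:112130887-112130946, inside the interval of Mir203, and was not analysed here as a locus of its own. The other 6 members had 0 reads on the opposite strand in both libraries, and 31 of the 389 detected loci (7.97%) had at least 1.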

How the results depend on the processing

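The number of detected members was 4, and became 2 with a minimum of 50 reads and 7 with no minimum, by construction of these limits. It ran from 4 to 6 when each replicate was left out. The summed level then ran from 130 to 253 CPM and the share of Mir200b in its cluster from 18.5 to 44.0%, which are the values of the single libraries. Members past the test numbered 2 to 3 over the alternatives. Mir200b (log2 ratio 2.12 to 2.30) and Mir203 (0.77 to 0.96) passed it under each alternative in which they were tested. Mir200b falls below the minimum of 50 reads. Scaling by library totals moves the median log2 ratio of all detected loci from −0.0098 to 0.16, and the split of loci past the test to 159 higher of 236. No paired analysis was possible because there is 1 group. With only 2 libraries, the spread between animals is not measured apart from that between preparations.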
